A study of Mus musculus with 32 samples.

Results

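Of the 24302 genes listed in the deposited counts, 10 were followed across mouse CD4+ T cells that were labelled knockout (KO) or wild type (WT) for Nr4a1: Spp1, Spock2, Emp1, Ecel1, Wdfy1, Rgcc, Gldc, Phyhip, Twist1 and BC018473. They were chosen by their measured levels, as genes with large differences between the genotypes in several or all conditions, and the choice named no cut-off. Every KO against WT value of these genes is therefore a description and carries no test. Tests were run only on contrasts that the choice did not name. These are the change within each genotype with stimulation or with an inhibitor, and the KO against WT values of other genes. The choice did use the levels that form the changes within a genotype, so those tests are not free of it.

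C57BL/6J mice gave the cells, from their spleen and from axillary and inguinal nodes, and gene expression was measured by strand-specific sequencing of polyadenylated RNA in 32 libraries, 4 in each of 8 groups. In both genotypes, cells were stimulated for 12 h through CD3 and CD28 together with XCT790, an inverse agonist of the nuclear receptor ERR-alpha, at 10 µg/ml, stimulated with a compound coded CompA at 10 µg/ml, stimulated without an inhibitor, or labelled as unstimulated controls. The protocol describes stimulation without excepting the controls. The sources used here give neither the KO allele nor the vehicle, and they do not say whether replicates are different mice. P-values therefore measure only how far these libraries scatter, and that scatter may be technical.

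Nur77, the product of Nr4a1, is an orphan nuclear receptor. It is induced within hours of antigen receptor signalling and binds DNA as a monomer at a short element called NBRE. Its own transcript was not lower in the KO-labelled libraries. It stood at 229 to 506 CPM (read counts scaled to library size, with TMM factors) in KO-labelled and 130 to 207 CPM in WT stimulated libraries, and at 86.2 to 110 CPM in KO-labelled and 45.2 to 96 CPM in WT unstimulated libraries. The stimulated difference passed the test (1.99-fold, edgeR adjusted p = 0.0015), and those with XCT790, with CompA and in unstimulated cells did not (adjusted p = 0.059, 0.09 and 0.17). The stimulated call was lost when the unstimulated transcripts that WT libraries kept, described below, were taken out (adjusted p = 0.0909, log2 difference 0.67). Counts over the whole gene cannot tell an intact from an altered transcript, and KO below means KO-labelled.

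The 10 genes have different roles. Spp1 encodes osteopontin, a secreted protein of activated T cells and macrophages that binds integrins and CD44, and Spock2 encodes testican-2, a proteoglycan of the extracellular matrix. Emp1 encodes a membrane protein of the PMP22 family and Ecel1 a membrane metalloprotease best known in neurons. Wdfy1 encodes a protein of endosomes that takes part in Toll-like receptor signalling, and Rgcc a regulator of the cell cycle that binds the mitotic kinase Cdk1. Gldc encodes glycine decarboxylase of the mitochondrial glycine cleavage system and Phyhip a protein that interacts with phytanoyl-CoA hydroxylase and is known mainly from the brain. Twist1 encodes a basic helix-loop-helix transcription factor that limits inflammatory cytokine expression in type 1 helper T cells. BC018473 is annotated as an antisense, non-coding transcript.

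On GRCm38 (mm10) the genes lie on 8 chromosomes. Spp1 lies on chromosome 5 (104435118 to 104441050, plus strand), Spock2 on chromosome 10 (60106219 to 60135198, plus), Emp1 on chromosome 6 (135362545 to 135383173, plus) and Ecel1 on chromosome 1 (87147655 to 87156521, minus). Wdfy1 is also on chromosome 1 (79702262 to 79776143, minus). Rgcc (79288756 to 79301645, minus) and Phyhip (70457476 to 70468832, plus) lie on chromosome 14, Gldc on chromosome 19 (30098447 to 30175429, minus), Twist1 on chromosome 12 (33957671 to 33959829, plus) and BC018473 on chromosome 11 (116752167 to 116759373, plus). None is on chromosome 15 with Nr4a1 (101254269 to 101274795). The first bases of Wdfy1 overlap those of Mrpl44 on the opposite strand, and no source used here says whether reads were counted by strand.

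Promoter windows were available from RefSeq (GRCm38.p6) for 7 of the 10 genes, 9 windows in all. Each covers the 250 bases before the start of a RefSeq transcript. By the GENCODE annotation 3 windows lie wholly before the gene (those of Gldc and Twist1 and 1 of Spp1), 3 run partly into it and 3, both of Emp1 and the other of Spp1, lie wholly inside it. They were searched on both strands for the NBRE (AAAGGTCA), for the element of ERR-alpha (TCAAGGTCA, which overlaps the NBRE in its last bases) and for the AP-1 site (TGANTCA), AP-1 being a factor that T cell stimulation induces. No window held the NBRE, against 1.34 percent of 32851 mouse windows, and none held the ERR element, against 0.387 percent. The AP-1 letters were present in 1 window, that of Emp1, against 6.75 percent of all windows. The window held 2 matches, 241 and 361 bases after the GENCODE start of Emp1, so inside the gene, and upstream only of the RefSeq start. The first is shown with its flanks on the plus strand, outside annotated exons, at chr6:135362775-135362804 with the site in capitals. The second lies partly in an annotated exon and is not shown. The 250 bases before Spp1 (chr5:104434861-104435110, plus) and before Twist1 (chr12:33957421-33957670, plus) are shown as windows of a secreted protein and a transcription factor, each higher in KO libraries, that held none of the 3 motifs. A match describes letters and is not a site of binding.
Emp1, first AP-1 match: gtctgtgtgtcTGAGTCAgagggagctaca
Spp1, promoter: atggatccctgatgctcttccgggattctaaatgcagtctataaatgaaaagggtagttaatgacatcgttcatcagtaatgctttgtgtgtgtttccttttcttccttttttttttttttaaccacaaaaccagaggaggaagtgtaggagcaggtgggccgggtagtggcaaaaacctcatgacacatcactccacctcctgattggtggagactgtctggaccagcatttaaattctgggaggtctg
Twist1, promoter: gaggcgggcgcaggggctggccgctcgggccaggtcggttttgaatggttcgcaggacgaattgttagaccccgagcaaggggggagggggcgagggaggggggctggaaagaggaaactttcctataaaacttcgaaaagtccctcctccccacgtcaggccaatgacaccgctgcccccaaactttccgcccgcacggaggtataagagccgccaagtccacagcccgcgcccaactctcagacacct

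Libraries held 16020288 to 23687940 gene counts, and all 10 genes passed the filter on low counts that left 12332 genes. T cell markers summed to 3170 to 4670 CPM in every library. Some libraries stood apart from others of their kind. The WT stimulated libraries kept transcripts of the unstimulated libraries. In them, 86 genes that other stimulated groups had nearly lost stood at 0.159, 0.468, 0.221 and 0.216 of their unstimulated level. The 12 other libraries used to choose these genes stood at 0.00141 to 0.00698. Some macrophage genes, such as Csf1r, behave as the choice of the 86 asks, and others, such as Lyz2, do not. Lyz2 averaged 125 CPM in KO unstimulated and 5.37 CPM in KO stimulated libraries. Csf1r averaged 599 CPM in WT unstimulated, 177 CPM in WT stimulated, 0.633 CPM in WT XCT790 and 0.79 CPM in KO stimulated libraries. Whether the share measures unstimulated T cells or myeloid cells that were kept was not tested. Every result with this share subtracted carries that limit. Sums of 19 myeloid and dendritic markers were 30.3 to 41.7 CPM in KO and 562 to 1820 CPM in WT stimulated libraries, 23.2 to 59.2 CPM in KO and 17.1 to 26.7 CPM in WT libraries with an inhibitor, and 1080 to 2580 CPM in KO and 2650 to 4600 CPM in WT unstimulated libraries. None of the 19 was at 0 in a WT stimulated or in any unstimulated library, and 1 to 4 were in each of the others. Among KO libraries, B cell markers summed highest in replicate 2 in each condition, 189 CPM with XCT790, 238 with CompA, 244 stimulated and 687 unstimulated. WT libraries carry the numbers 1 to 16 and KO libraries 25 to 40, so genotype and the order of the libraries cannot be told apart.

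**Figure D1:**
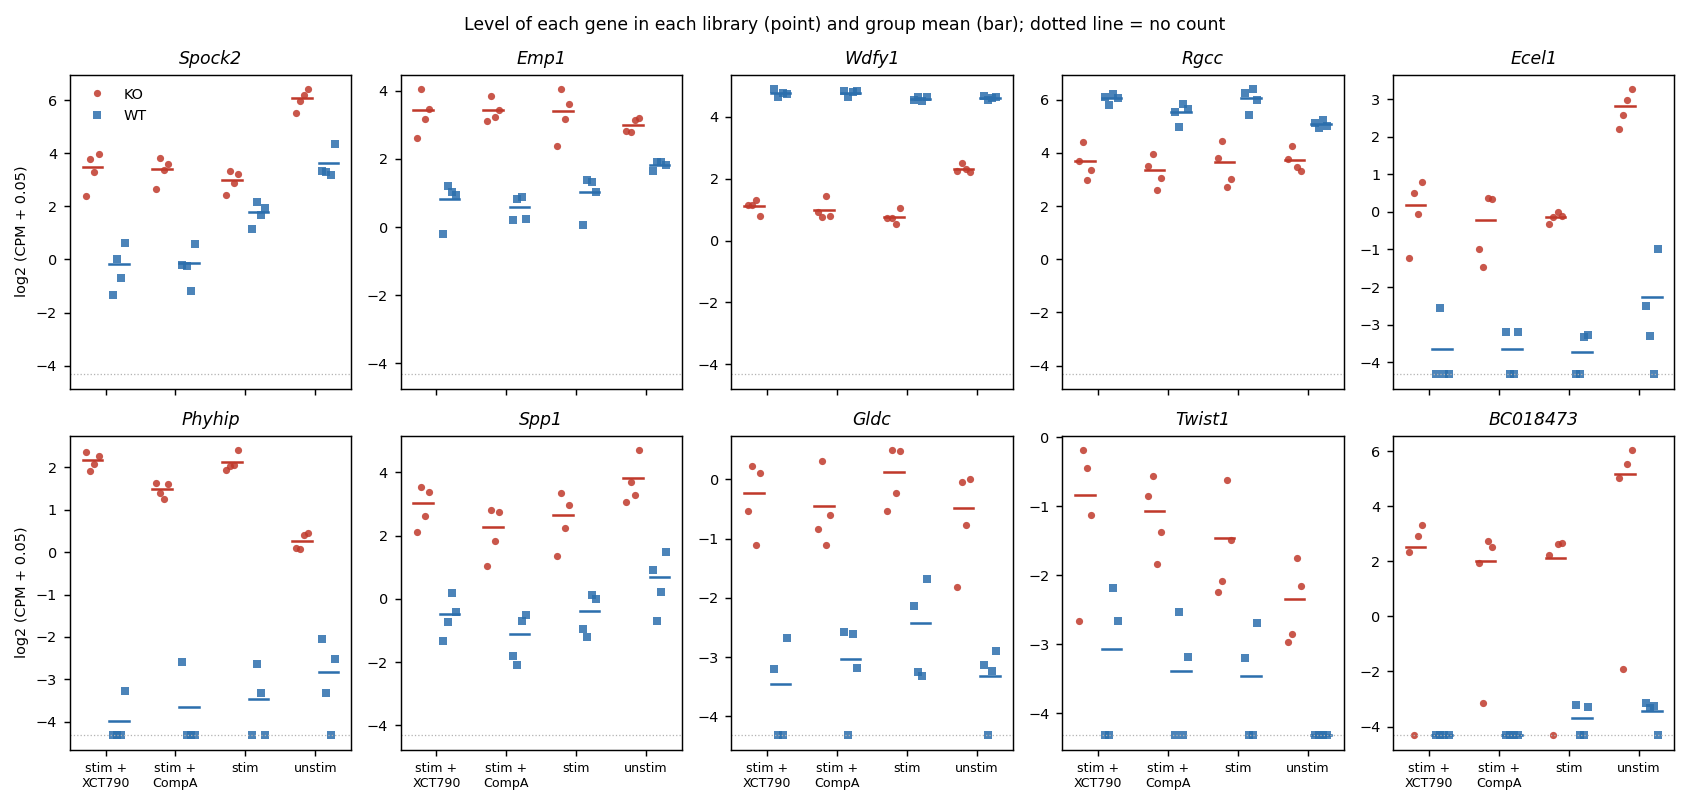
Level of each of the 10 genes on a log2(CPM + 0.05) axis in every library (points, 4 per group), KO circles left of WT squares in each condition, with group means as bars and the level of no count as a dotted line. KO points lie above WT points for 8 genes and below them for Wdfy1 and Rgcc, with overlaps for Twist1 with XCT790 and for BC018473, where KO replicate 2 lies near the WT level.

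In KO libraries 8 of the genes were higher, and Wdfy1 and Rgcc were lower. The 4 KO and the 4 WT libraries did not overlap in any of the 4 conditions for 8 of the 10 genes. Over all tested genes, 0.997 percent (123 genes) showed this in 1 direction throughout, and libraries did not overlap for 19.6 percent of genes with XCT790, 15.3 percent with CompA, 18.4 percent in stimulated and 31.1 percent in unstimulated cells. Since the genes were selected on these differences, nothing is read from their count. In such bulk samples fewer cells of a type and less RNA per cell cannot be told apart.

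Of the secreted proteins, Spp1 was 8.6-fold to 12-fold higher in KO libraries throughout. With XCT790 it stood at 4.33, 11.7, 6.12 and 10.3 CPM in KO libraries, against 0.351, 0.546, 1.08 and 0.697 CPM in WT libraries, and with CompA at 2.02, 7.01, 3.5 and 6.73 CPM against 0.233, 0.183, 0.563 and 0.659 CPM. Stimulated libraries had 2.52, 10.1, 4.7 and 7.72 CPM in KO and 0.468, 0.385, 1.05 and 0.945 CPM in WT, and unstimulated libraries 8.36, 12.8, 9.74 and 26.2 CPM in KO and 1.85, 0.559, 1.11 and 2.75 CPM in WT. Every KO library exceeded every WT library of its condition, and among KO libraries replicate 1 was the lowest in each. The fitted folds were 12 with XCT790, 11.5 with CompA, 8.6 in stimulated and 8.95 in unstimulated cells. Macrophages also make osteopontin, and the myeloid sums given above were lower in KO than in WT unstimulated and stimulated libraries. With an inhibitor their means were higher in KO, at 38.1 CPM against 21.4 CPM in WT with XCT790 and 44.8 CPM against 23.3 CPM with CompA. In KO replicates 1 to 4 unstimulated, the myeloid sum was 1080, 1890, 1470 and 2580 CPM, the same order of libraries as in Spp1. The part of such cells in the result was not tested.

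Among the genes with more than 20 counts in every group, Spock2 had the KO against WT difference that varied most between conditions. With XCT790 it stood at 5.23, 13.7, 9.81 and 15.7 CPM in KO and 0.351, 0.971, 0.568 and 1.5 CPM in WT libraries (12.9-fold). CompA gave 6.24, 14, 10.4 and 11.9 CPM in KO and 0.817, 0.793, 0.394 and 1.44 CPM in WT libraries (12.3-fold). The inhibitor groups were thus alike within each genotype. Stimulated libraries had 5.31, 10, 7.35 and 9.28 CPM in KO and 2.17, 4.45, 3.14 and 3.78 CPM in WT (2.35-fold), and unstimulated libraries 45.3, 63.2, 72.2 and 85.8 CPM in KO and 10.1, 9.8, 9.06 and 20.1 CPM in WT (5.41-fold). The stimulated difference was the smallest of the 4, in the comparison whose WT libraries kept unstimulated transcripts. With the estimated unstimulated share subtracted from those WT libraries, it was 4.13 on the log2 scale in place of 1.23. The subtraction set negative counts to 0. In WT replicate 2, the share of 0.468 of a mean of 12.2 CPM exceeded the 4.45 CPM measured, so Spock2 was left at 0. The 4.13 therefore rests on few WT counts.

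Among the membrane proteins, Emp1 was higher in KO libraries by 6.13-fold with XCT790, 7.41-fold with CompA, 5.3-fold in stimulated and 2.27-fold in unstimulated cells. The stimulated KO libraries had 5.15, 16.4, 8.95 and 12.1 CPM, against 0.995, 2.53, 2.44 and 1.99 CPM in WT. Unstimulated libraries had 7.03, 6.89, 8.71 and 9.11 CPM in KO and 3.06, 3.71, 3.67 and 3.51 CPM in WT. KO libraries with an inhibitor spanned 6.09 to 16.6 CPM and WT libraries with an inhibitor 0.819 to 2.25 CPM, again without overlap.

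Ecel1 was nearly absent from WT libraries. It had 7, 23, 20 and 33 counts in KO and 0, 2, 0 and 0 counts in WT libraries with XCT790, and 8, 5, 27 and 22 counts in KO and 1, 0, 0 and 1 counts in WT libraries with CompA. Stimulated libraries had 14, 14, 19 and 20 counts in KO and 0, 0, 1 and 1 counts in WT. Unstimulated libraries had 116, 136, 191 and 221 counts in KO and 2, 1, 0 and 11 counts in WT. The pooled ratios of KO over WT were 37.6 (95 percent interval 10.1 to 316, counting error only) with XCT790, 28.7 (7.61 to 242) with CompA, 32 (8.53 to 270) in stimulated and 38.4 (22.7 to 70.6) in unstimulated cells. WT unstimulated replicate 4 held 11 of the 14 counts of its group, and Ecel1 was low even in KO libraries once stimulated, at 0.751 to 0.95 CPM.

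Both genes that were lower in KO libraries act inside the cell. Wdfy1 varied little between replicates. It stood at 2.19, 2.19, 2.42 and 1.69 CPM in KO and 30, 25, 27.1 and 27 CPM in WT libraries with XCT790, and at 1.85, 1.63, 2.67 and 1.67 CPM in KO and 28.4, 24.7, 27.9 and 28.7 CPM in WT libraries with CompA. Stimulated libraries had 1.61, 1.61, 1.4 and 2.05 CPM in KO and 23.1, 24.7, 22.7 and 24.8 CPM in WT, and unstimulated libraries 4.69, 5.66, 4.95 and 4.58 CPM in KO and 25.4, 23.2, 24.3 and 25 CPM in WT. WT levels stayed within 22.7 to 30 CPM in all 16 libraries, while KO levels were lower and differed between unstimulated and other cells. The KO level was 12.8-fold lower with XCT790, 13.8-fold with CompA, 14.2-fold in stimulated and 4.92-fold in unstimulated cells. Mrpl44, which overlaps Wdfy1 on the other strand and encodes a mitochondrial ribosomal protein, stood at 28.9 ± 3.28 CPM in KO and 37.3 ± 5.24 CPM in WT unstimulated cells (SD, n = 4; log2 difference -0.37, edgeR adjusted p = 0.013) and did not pass the test in the other conditions.

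Rgcc was lower in KO libraries by 5.12-fold with XCT790, 4.57-fold with CompA, 5.35-fold in stimulated and 2.52-fold in unstimulated cells. Stimulated libraries had 14, 21.5, 6.55 and 8.02 CPM in KO and 76.8, 42.5, 84.6 and 62.4 CPM in WT, and unstimulated libraries 13.7, 18.9, 10.9 and 10 CPM in KO and 35.1, 30.3, 37.4 and 31.9 CPM in WT. Replicate 2 was the highest KO library and the lowest WT library in each condition, with 21.1 CPM in KO and 55.7 CPM in WT with XCT790, and 15.3 CPM in KO and 30.9 CPM in WT with CompA. The genotypes still did not overlap.

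The metabolic genes were expressed at low levels. Phyhip stood at 5.07, 3.73, 4.2 and 4.76 CPM in KO libraries with XCT790, 3.04, 2.57, 2.35 and 3 CPM with CompA, 3.81, 4.01, 4.1 and 5.27 CPM stimulated and 1.02, 1.01, 1.28 and 1.31 CPM unstimulated. WT libraries had at most 3 counts each: 1 count in all with XCT790, 2 with CompA, 3 stimulated and 7 unstimulated, where KO groups had 343, 200, 339 and 110 counts. The pooled ratio was 311 with XCT790 (95 percent interval 55.4 to 12300), 92.5 with CompA (25.3 to 769), 108 in stimulated (36.7 to 527) and 12.7 in unstimulated cells (5.97 to 32.4). KO replicates were close to each other in each condition.

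Gldc had 12, 19, 9 and 20 counts in KO and 1, 0, 0 and 2 counts in WT libraries with XCT790, and 9, 19, 9 and 11 counts in KO and 2, 0, 2 and 1 counts in WT libraries with CompA. Stimulated libraries had 12, 22, 16 and 31 counts in KO and 3, 1, 1 and 5 counts in WT, and unstimulated libraries 6, 21, 13 and 22 counts in KO and 1, 0, 1 and 2 counts in WT. Its pooled ratios were 18.1 with XCT790 (95 percent interval 5.91 to 90.3), 8.88 with CompA (3.55 to 28.6), 7.74 in stimulated (4 to 16.8) and 12.6 in unstimulated cells (4.66 to 47.5), and no KO library fell to the WT range.

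Twist1 was the least abundant of the 10. It had 2, 14, 15 and 8 counts in KO and 0, 0, 3 and 2 counts in WT libraries with XCT790, where the groups overlapped, and 9, 10, 5 and 6 counts in KO and 0, 2, 0 and 1 counts in WT libraries with CompA. Stimulated libraries had 3, 3, 12 and 7 counts in KO and 1, 0, 0 and 2 counts in WT, and unstimulated libraries 2, 2, 6 and 4 counts in KO and none in WT. The pooled ratio was 7.07 with XCT790 (95 percent interval 2.78 to 23), 9.25 with CompA (2.88 to 47.4) and 7.97 in stimulated cells (2.43 to 41.2). In unstimulated cells Twist1 was at least 3.78-fold higher in KO libraries, taken against 3 counts over the WT group.

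**Figure D2:**
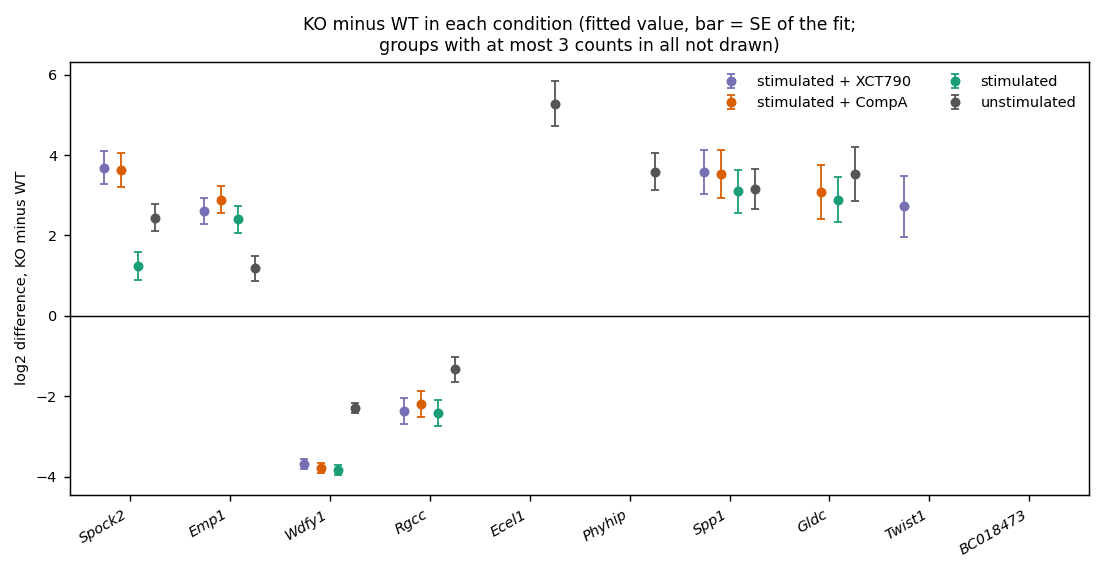
Fitted log2 difference, KO minus WT, of each gene in each condition, with the SE of the fit as a bar. Values for which a group held at most 3 counts are not drawn, which leaves BC018473 without a point. The drawn values reach 5.27 for genes higher in KO libraries and lie between -3.83 and -1.33 for Wdfy1 and Rgcc.

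BC018473 was high in 3 of the 4 KO replicates and near the WT level in KO replicate 2, in every condition. It had 95, 0, 165 and 194 counts in KO libraries with XCT790, 68, 1, 144 and 101 with CompA, 87, 0, 124 and 145 stimulated and 826, 5, 1118 and 1515 unstimulated. WT libraries had none with either inhibitor, 2 counts in all stimulated and 3 in all unstimulated. KO and WT libraries overlapped with XCT790 and in stimulated cells, through replicate 2 alone. Over the groups, the KO level was at least 137-fold higher with XCT790 and at least 96.8-fold higher with CompA, against 3 counts over the WT group, and the pooled ratio was 170 (95 percent interval 46.8 to 1410) in stimulated and 935 (320 to 4540) in unstimulated cells. With the 4 libraries of KO replicate 2 omitted, an alternative chosen after seeing the data, the fitted unstimulated difference was 10.05 on the log2 scale in place of 9.64. Among all 24302 genes in the deposited counts, BC018473 was the only one at least 8-fold lower in a given KO replicate than in the other KO libraries in all 4 conditions, with 0.1 CPM added. Tff3, a secreted trefoil peptide, was the only one that much higher. Tff3 had 21, 20, 24 and 22 counts in KO replicate 2 with XCT790, with CompA, stimulated and unstimulated, and none in the other 28 libraries.

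Some genes beside BC018473 followed the same KO libraries in unstimulated cells. Within 500 kb on either side, a window chosen after the values were seen, 23 genes had at least 20 counts, and for 5 of them the lowest of the 3 other KO libraries was at least 5-fold above replicate 2. Besides BC018473 these were Cygb (cytoglobin, start at -106.6 kb), St6galnac2 (-75.5 kb), St6galnac1 (12.9 kb) and Mxra7 (51.2 kb). Only genes lower in replicate 2 were counted, and the share of all genes that would pass was not computed. Others in the window stood higher in replicate 2. Mettl23 had 46.5, 75.8, 42.6 and 48.7 CPM in KO and 80.2 to 171 CPM in WT unstimulated libraries. Rhbdf2 had 12, 19.8, 13.2 and 12.2 CPM in KO and 14.2 to 17.5 CPM in WT stimulated libraries. The St6galnac genes encode sialyltransferases. Cygb stood at 6.72, 0.351, 7.18 and 9.86 CPM in KO and 0.833 to 1.72 CPM in WT unstimulated libraries, and St6galnac2 at 21.6, 3.07, 29.6 and 30.4 CPM in KO and 3.61 to 6.43 CPM in WT. St6galnac1 stood at 2.74, 0.132, 5.04 and 3.18 CPM in KO unstimulated libraries, with WT libraries from 0.0556 CPM upward and all below KO replicate 2. With CompA, St6galnac2 had 49, 0, 45 and 46 counts in KO and none in WT libraries. The 1810032O08Rik gene, which lies between Cygb and St6galnac2, had 4.53, 3.2, 4.33 and 4.75 CPM in KO and 3.38 to 3.91 CPM in WT unstimulated libraries and did not share the step. In stimulated libraries it was highest in KO replicate 2, with 3.75, 7.66, 3.3 and 2.75 CPM in KO and 2.91 to 4.41 CPM in WT. Marker sums of B cells and of erythroid, platelet and mast cells were also highest in KO replicate 2. The erythroid, platelet and mast cell sum was 32.6 CPM in replicate 2 and 2.88 to 6.75 CPM in the other KO libraries with XCT790, 164 and 7.25 to 20.9 CPM with CompA, 238 and 4.99 to 18.3 CPM stimulated, and 179 and 18 to 48 CPM unstimulated. Most of that sum was 1 gene, Alas2. It averaged 65.1 of 68.9 CPM in KO stimulated libraries and 50 of 53 CPM in KO libraries with CompA. Hbb-bs, Hbb-bt and Hba-a1 had no count. The part of such cells in this pattern was not tested.

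**Figure D3:**
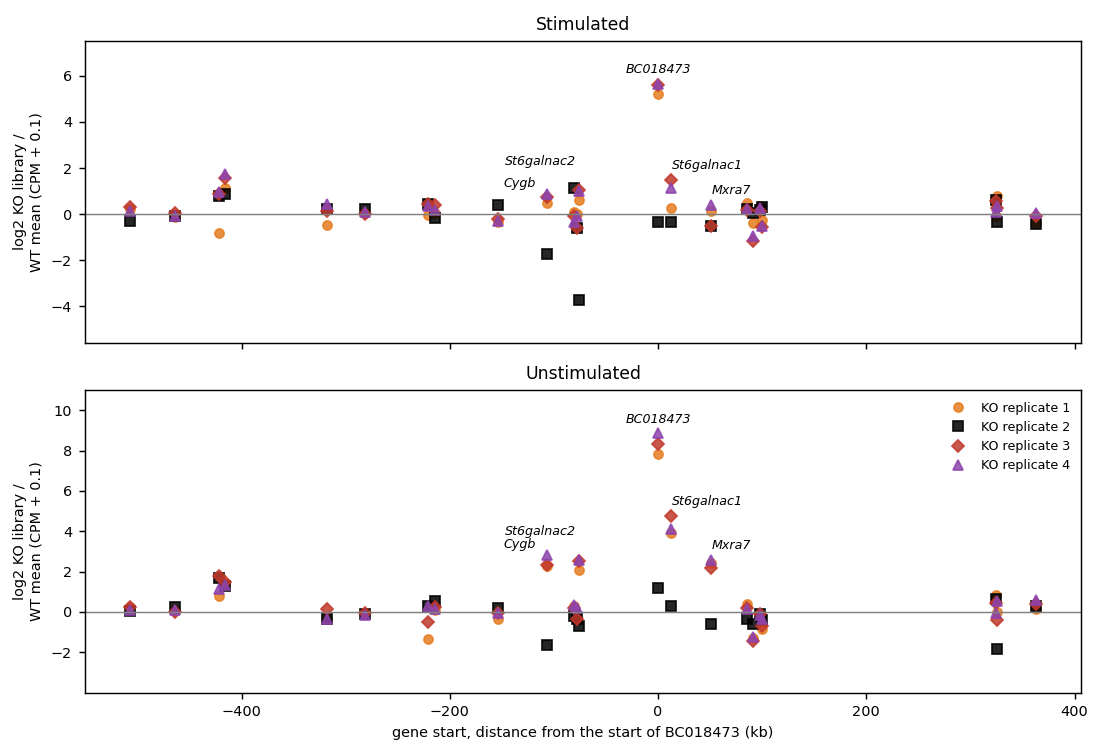
Log2 ratio of each KO library to the WT mean, with 0.1 CPM added, for the 23 genes within 500 kb of BC018473 against the distance of their starts, in stimulated (top) and unstimulated (bottom) cells. Symbols mark the 4 KO replicates. In unstimulated cells replicates 1, 3 and 4 stand above replicate 2 at Cygb, St6galnac2, BC018473, St6galnac1 and Mxra7.

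For the 10 genes together, the nearest tested gene on each side gave 20 neighbours, and their KO against WT differences could be tested. With XCT790, 3 were higher and 1 lower in KO cells, with CompA 1 higher and 1 lower, in stimulated cells 2 lower, and in unstimulated cells 1 higher and 5 lower. The shares of all genes called in either direction were 9.51 percent with XCT790, 7.7 percent with CompA, 25.2 percent in stimulated and 36.1 percent in unstimulated cells, so that the neighbours were called near the background or below it except with XCT790. St6galnac2 was 1 of the higher neighbours in all 3 conditions with a higher call. Hdac9, a histone deacetylase gene beside Twist1, stood at 1.7 ± 0.263 CPM in KO and 0.63 ± 0.0407 CPM in WT cells with XCT790 (SD, n = 4; log2 difference 1.42, edgeR adjusted p = 0.024). In stimulated cells it stood at 0.983 ± 0.52 CPM in KO and 2.41 ± 1.44 CPM in WT (log2 difference -1.28, edgeR adjusted p = 0.011), and with the unstimulated share subtracted the difference turned to 0.5 (adjusted p = 0.66). That subtraction, added for these neighbours after their values were seen, left 1 higher and 1 lower of the 20 in stimulated cells.

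Stimulation was tested within each genotype. The choice of genes did not name this contrast, but it used the levels that form it. A gene chosen for an extreme level in a condition can show a change for that reason, so the tally and median below are a description. In KO libraries Phyhip rose and Spock2, Wdfy1, Ecel1, Spp1 and BC018473 fell. This is 1 rise and 5 falls among 10 genes, where 39.3 percent of all tested genes rose and 42.4 percent fell, and the median log2 change was -0.65 for the 10 genes against -0.07 for all genes. Phyhip averaged 4.3 ± 0.662 CPM in stimulated and 1.15 ± 0.163 CPM in unstimulated KO libraries (SD, n = 4; 3.72-fold, edgeR adjusted p = 1.5e-06), without overlap. Wdfy1 averaged 1.67 ± 0.273 CPM in stimulated and 4.97 ± 0.487 CPM in unstimulated KO libraries, a fall by 1.57 on the log2 scale (SE 0.13, edgeR adjusted p = 1.5e-11). Spock2 averaged 7.99 ± 2.11 CPM in stimulated and 66.6 ± 17 CPM in unstimulated KO libraries, 8.34-fold lower (edgeR adjusted p = 2.8e-09). These 3 calls were kept, with the same sign, in each of the alternatives run.

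Ecel1 averaged 0.859 ± 0.0819 CPM in stimulated and 7.01 ± 2.23 CPM in unstimulated KO libraries (8.09-fold lower, edgeR adjusted p = 7.8e-07). Spp1 averaged 6.25 ± 3.32 CPM in stimulated and 14.3 ± 8.15 CPM in unstimulated KO libraries (2.28-fold lower, edgeR adjusted p = 0.015). The Spp1 libraries overlapped, and the call was lost without stimulated replicate 1 (adjusted p = 0.0609) or unstimulated replicate 4 (0.138). BC018473 fell by 3.05 on the log2 scale (edgeR adjusted p = 0.0082), a call that limma-voom (adjusted p = 0.16) and DESeq2 (0.0637) did not make. With the 4 libraries of KO replicate 2 omitted it fell by 3.07 (edgeR adjusted p = 1.03e-08). The myeloid marker sum was 30.3 to 41.7 CPM in stimulated and 1080 to 2580 CPM in unstimulated KO libraries, and its part in these falls was not tested. Emp1, Rgcc, Gldc and Twist1 were not called in KO libraries, with log2 changes of 0.42, -0.11, 0.65 and 1.08. Gldc was called with the replicate block (log2 0.68, adjusted p = 0.0172).

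In WT libraries Rgcc rose with stimulation and Spock2 and Emp1 fell. A fall of Ecel1 was also called, on counts too few to follow. This is 1 rise and 3 falls called among 10 genes, against 34.5 percent of all tested genes that rose and 38.8 percent that fell, and the median log2 change was -0.62 for the 10 genes and -0.11 for all. Ecel1, Phyhip, Gldc, Twist1 and BC018473 had at most 14 counts in a WT group and passed the filter through the KO libraries. They could hardly inform this tally or median, and nothing is read from either. Rgcc averaged 66.6 ± 18.5 CPM in stimulated and 33.7 ± 3.22 CPM in unstimulated WT libraries (SD, n = 4; 1.98-fold, edgeR adjusted p = 0.0055), and all stimulated libraries were above all unstimulated ones. Spock2 averaged 3.39 ± 0.974 CPM in stimulated and 12.2 ± 5.23 CPM in unstimulated WT libraries, 3.62-fold lower (edgeR adjusted p = 3.2e-05). With the unstimulated share subtracted, its fall was 4.78 in place of 1.86 on the log2 scale, with few stimulated counts left. Emp1 averaged 1.99 ± 0.704 CPM in stimulated and 3.48 ± 0.298 CPM in unstimulated WT libraries (1.74-fold lower, edgeR adjusted p = 0.032), a call lost in limma-voom (adjusted p = 0.0673) and without WT unstimulated replicate 1 (0.0528), stimulated replicate 1 (0.117) or stimulated replicate 4 (0.0564). Ecel1 had 2 counts in stimulated and 14 in unstimulated WT libraries (edgeR adjusted p = 0.046), and it passed the filter on low counts through the KO libraries. The call was lost without unstimulated replicate 4, which held 11 of the 14 counts (log2 change -0.96 in place of -2.45, adjusted p = 0.521), without unstimulated replicate 1 (0.0578) and without each stimulated replicate (0.0519 to 0.101).

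Wdfy1 did not pass the test in WT libraries, at 23.9 ± 1.08 CPM in stimulated and 24.5 ± 0.954 CPM in unstimulated cells (log2 change -0.04, SE 0.11, edgeR adjusted p = 0.78). Spp1 averaged 0.711 ± 0.333 CPM in stimulated and 1.57 ± 0.951 CPM in unstimulated WT libraries (log2 change -1.13, edgeR adjusted p = 0.075). It was called with the replicate block (log2 -1.11, adjusted p = 0.00448), in DESeq2 (0.0328), without unstimulated replicate 2 (0.024) and with the share subtracted (log2 -1.63, adjusted p = 0.0273). Phyhip, which rose in KO libraries, had 3 counts in stimulated and 7 in unstimulated WT libraries, too few to follow. Whether the changes differed between the genotypes was not tested, since the genes were chosen on the contrasts that such a test combines.

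XCT790 and CompA were compared with stimulation alone. In KO libraries none of the 10 genes was called with XCT790, where 6.2 percent of all genes rose and 5.07 percent fell, or with CompA, where 10.2 percent rose and 9.11 percent fell. At an unadjusted p under 0.05 in edgeR, 1 gene passed with each. Wdfy1 averaged 2.12 ± 0.309 CPM with XCT790 and 1.67 ± 0.273 CPM stimulated alone (unadjusted p = 0.045, adjusted p = 0.19). Phyhip averaged 2.74 ± 0.337 CPM with CompA and 4.3 ± 0.662 CPM stimulated alone, and each library with CompA was below each without (log2 change -0.65, edgeR adjusted p = 0.11). The Phyhip change was called with the replicate block (adjusted p = 0.0199), in limma-voom (0.022) and in DESeq2 (0.00425). With XCT790, DESeq2 and limma-voom called none of the 10 in KO libraries.

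In WT libraries Spock2 was the only one of the 10 genes called, and it fell with both inhibitors. It averaged 0.848 ± 0.506 CPM with XCT790, 0.861 ± 0.431 CPM with CompA and 3.39 ± 0.974 CPM stimulated alone (log2 change -1.98 with each, SE 0.44, edgeR adjusted p = 0.00085 and 0.00087). Over all genes 8.4 percent rose and 20.2 percent fell with XCT790, and 11.6 percent rose and 21.3 percent fell with CompA. Ecel1, Phyhip, Gldc, Twist1 and BC018473 held at most 10 counts in each of these WT groups and could hardly have been called. The count of calls is therefore not read against these shares. These contrasts rest on the WT stimulated libraries. With the unstimulated share subtracted from them, the Spock2 changes were 0.93 with XCT790 (adjusted p = 0.513) and 0.92 with CompA (adjusted p = 0.398), so that the calls were lost and their sign turned. The subtraction left few Spock2 counts, so no direction is read from the turned sign. In KO libraries Spock2 averaged 11.1 ± 4.63 CPM with XCT790, 10.7 ± 3.29 CPM with CompA and 7.99 ± 2.11 CPM stimulated alone (log2 change 0.48 and 0.41, edgeR adjusted p = 0.38 and 0.42). Rgcc averaged 46.3 ± 11.2 CPM with CompA and 66.6 ± 18.5 CPM stimulated alone in WT libraries (edgeR adjusted p = 0.19). It was called with the replicate block, as given in the last section.

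The inhibitors were also set against each other at their shared dose and time. None of the 10 genes was called in edgeR, in KO libraries, where 1.97 percent of all genes were higher with XCT790 and 1.27 percent lower, or in WT libraries, where 4.33 percent were higher and 5.08 percent lower. In KO libraries 1 gene, Phyhip, had an unadjusted p under 0.05, and in WT libraries 0 did. In WT, Ecel1, Phyhip, Gldc, Twist1 and BC018473 held at most 5 counts in each group and could hardly have passed. Phyhip averaged 4.44 ± 0.595 CPM with XCT790 and 2.74 ± 0.337 CPM with CompA in KO libraries (log2 difference 0.7, SE 0.28, edgeR adjusted p = 0.21), without overlap. It was called with the replicate block (adjusted p = 0.0375) and in DESeq2 (0.0138), and Spp1 was called with the block alone (log2 0.79, adjusted p = 0.0273). Rgcc averaged 66.3 ± 7.56 CPM with XCT790 and 46.3 ± 11.2 CPM with CompA in WT libraries (log2 difference 0.52, edgeR adjusted p = 0.34), and was called with the block (log2 0.54, adjusted p = 0.00198) and in the fit of the 2 groups alone (0.0356). A p above the threshold does not show that the compounds act alike.

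**Figure D4:**
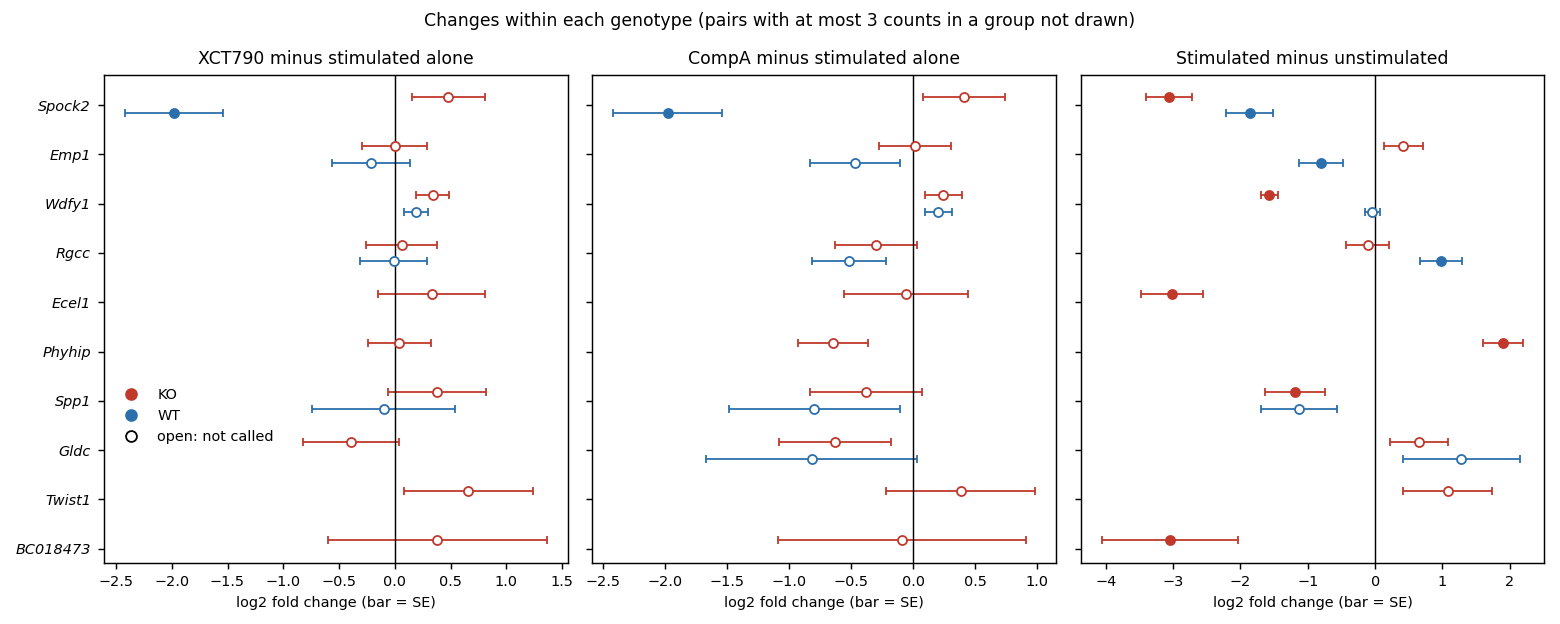
Log2 fold changes with XCT790 and with CompA, each against stimulation alone, and with stimulation against unstimulated cells, for the 10 genes in KO (red, above) and WT (blue, below), with the SE of the fit as a bar. Filled points passed the test and open points did not, and pairs with at most 3 counts in a group are not drawn. In WT the inhibitors moved Spock2 alone past the test, and stimulation moved 5 drawn genes down and Phyhip up in KO.

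Genes that share a pathway with each of the 10 were set beside them, as a description by counts and medians. Of all tested genes, 7.4 percent were called higher and 2.11 percent lower in KO cells with XCT790, 5.82 and 1.88 percent with CompA, 7.31 and 17.9 percent in stimulated cells, and 12.5 and 23.6 percent in unstimulated cells. The counts below are to be read against these shares. The first such list holds receptors of osteopontin, with 8 of 9 tested. In KO cells 3 were higher with XCT790 (median log2 difference 0.4 against 0.03 for all genes), 3 with CompA (0.41 against 0.02), 1 higher and 5 lower in stimulated cells (-0.81 against 0) and 2 higher and 2 lower in unstimulated cells (-0.02 against -0.08). Itgb1, the integrin beta 1 chain, was higher in all 4 conditions. It averaged 321 ± 37.7 CPM in KO and 244 ± 11.5 CPM in WT stimulated cells (SD, n = 4; 1.32-fold, edgeR adjusted p = 0.011), and 612 ± 88.2 CPM in KO and 278 ± 35.7 CPM in WT unstimulated cells (2.2-fold, edgeR adjusted p = 1.1e-07). Itgb5, another integrin chain, averaged 0.866 ± 0.416 CPM in KO and 16.2 ± 8.87 CPM in WT stimulated cells (edgeR adjusted p = 5.6e-10). With the unstimulated share subtracted, 1 receptor was higher and 1 lower in stimulated cells, and Itgb5 did not pass (log2 difference -0.83, adjusted p = 0.519) while Itgb1 did (0.48, adjusted p = 0.0173).

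A list around Twist1 and type 1 helper cells held inducers of that program, such as Stat4, Nfkb1 and Nfatc1, beside its cytokines, and so is no list of Twist1 targets. Of its 10 genes, 7 were higher in KO unstimulated cells, with a median of 0.66 against -0.08 for all genes. With XCT790, 1 was higher (median 0.31), with CompA 2 (0.17), and in stimulated cells 2 were higher and 1 lower (0.4). Ifng, interferon gamma, was higher in each condition. It averaged 149 ± 71.5 CPM in KO and 49.5 ± 17.3 CPM in WT stimulated cells (SD, n = 4; 3.01-fold, edgeR adjusted p = 0.0013), and 14.9 ± 5.82 CPM in KO and 5.01 ± 0.784 CPM in WT unstimulated cells (2.99-fold, edgeR adjusted p = 0.004). Markers of CD8 and NK cells, which also make interferon gamma, moved with it under the inhibitors. Their sum over 10 markers was 50 to 75.8 CPM in KO and 36.8 to 42.7 CPM in WT libraries with XCT790, and 71.2 to 91 CPM in KO and 52.1 to 55.8 CPM in WT libraries with CompA. The sums overlapped in stimulated cells (70.4 to 102 CPM in KO, 72.8 to 91.5 CPM in WT) and in unstimulated cells (121 to 197 CPM in KO, 139 to 194 CPM in WT). Cd8a averaged 13 CPM in KO and 6.37 CPM in WT stimulated cells and 12.2 CPM in KO and 6.06 CPM in WT unstimulated cells, and Eomes 16 CPM in KO and 7.16 CPM in WT unstimulated cells. Other markers of the list went the other way. In KO and WT, Klrb1c averaged 0.348 and 8.19 CPM stimulated and 8.59 and 25.6 CPM unstimulated. Klrd1 averaged 1.94 and 5.58 CPM stimulated and 6.37 and 19.5 CPM unstimulated, and Prf1 5.03 and 14.2 CPM and 29.1 and 48 CPM. Of the 10 markers, 1 or 2 were at 0 in each library, Klra8 in all of them, and the part of such cells in the result was not tested. The stimulated Ifng call was lost with the share subtracted (log2 1.15, adjusted p = 0.0508), as were the others of the list. With the 4 libraries of KO replicate 2 omitted, 5 were higher with XCT790, 3 higher and 1 lower with CompA, 5 higher in stimulated and 7 in unstimulated cells. Nfatc1, a factor of T cell receptor signalling, averaged 328 ± 21 CPM in KO and 160 ± 27.1 CPM in WT unstimulated cells (2.05-fold, edgeR adjusted p = 9.6e-07). Among Twist2 and the partners and inhibitors of such factors, with 6 of 7 tested, Id2, an inhibitor of basic helix-loop-helix factors, was the only one called in the model of all libraries. It was 2.78-fold higher with XCT790 and 2.86-fold higher with CompA in KO cells (edgeR adjusted p = 9.3e-06 and 5.7e-06). With the share subtracted, Id2 was also higher in stimulated cells (log2 1.5, edgeR adjusted p = 0.000349). With KO replicate 2 omitted, Id3 was called lower in unstimulated cells (log2 -0.84, edgeR adjusted p = 0.00827) and Tcf3 higher in stimulated cells (log2 0.21, edgeR adjusted p = 0.0258).

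Of 12 tested enzymes of glycine cleavage, one-carbon metabolism and serine synthesis around Gldc, 2 were lower in KO cells with XCT790 (median -0.15), 6 lower with CompA (-0.35), 3 higher in stimulated (0.28) and 3 lower in unstimulated cells (-0.16). The unstimulated count was near the share of all genes that were lower there. Psat1, of serine synthesis, averaged 457 ± 67.1 CPM in KO and 715 ± 87.9 CPM in WT cells with CompA (1.56-fold lower, edgeR adjusted p = 0.0056). None was called in stimulated cells with the unstimulated share subtracted (median -0.08), and 4 were lower with CompA with KO replicate 2 omitted. Stimulation raised 11 of the 12 in KO cells, where 39.3 percent of all genes rose, and 10 in WT cells, where 34.5 percent rose. Gldc itself had log2 changes of 0.65 in KO and 1.28 in WT cells, and whether it differed from the list was not tested.

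Of the 4 mitotic partners of Rgcc, 1 was higher in KO cells with XCT790, 1 with CompA, 1 in stimulated and 2 in unstimulated cells, and medians lay between 0.99 and 1.16. Plk1, a mitotic kinase, averaged 7.55 ± 2.45 CPM in KO and 3 ± 0.976 CPM in WT unstimulated cells (SD, n = 4; 2.5-fold, edgeR adjusted p = 0.022). With KO replicate 2 omitted, 3 were higher with XCT790, 4 with CompA, 3 in stimulated and 4 in unstimulated cells. With the unstimulated share subtracted, 0 were called in stimulated cells (median 1.08), where Plk1 had a log2 difference of 1.35 (edgeR adjusted p = 0.0939).

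Of 6 genes related to Wdfy1 by family or by Toll-like receptor signalling, 4 were lower in KO stimulated cells and none was called in the other conditions. Wdfy3 averaged 0.119 ± 0.097 CPM in KO and 6.78 ± 5.59 CPM in WT stimulated cells (SD, n = 4; edgeR adjusted p = 3.9e-08), beside the higher myeloid marker sums of the WT stimulated libraries. With the unstimulated share subtracted Wdfy3 did not pass (log2 difference -3.25, adjusted p = 0.0849), while Tlr4, a Toll-like receptor, turned to higher (7.75, adjusted p = 0.0038). The subtraction sets negative counts to 0, and its part in the Tlr4 value was not tested. Wdfy1 itself was as low as before (-3.84 in place of -3.83). Relatives of the other genes were mostly absent. Of the PMP22 family of Emp1, 1 of 4 genes was tested, Emp3, which was lower in KO stimulated (1.95-fold, edgeR adjusted p = 9e-05) and unstimulated cells (1.41-fold, adjusted p = 0.025) and not called in stimulated cells with the share subtracted. Of the proteases related to Ecel1, Ece1 was higher (1.56-fold, adjusted p = 0.015) and Ece2 lower (1.64-fold, adjusted p = 0.0028) in KO unstimulated cells. Phyh, the enzyme with which Phyhip interacts, was lower in KO stimulated cells (1.76-fold, edgeR adjusted p = 8.9e-06), and was not called once the share was subtracted (log2 difference 0.57, adjusted p = 0.429). In the testican and SPARC family of Spock2, Smoc1 was higher (1.92-fold) and Sparc lower (8.99-fold) in KO stimulated cells (edgeR adjusted p = 0.017 each), and neither passed with the share subtracted.

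The pattern of each gene over the 32 libraries was set against all other tested genes by the root mean square difference of centred log2(CPM + 1) values, as a description. Spock2 was nearest to Nt5e (0.47), which encodes the ectoenzyme CD73, and to Nrp1 (0.47), neuropilin-1. Nt5e averaged 23.1 CPM in KO and 4.36 CPM in WT cells with XCT790 and 129 CPM in KO and 48.8 CPM in WT unstimulated cells. Emp1 was nearest to Anxa2 (0.45) and Il10 (0.46), Spp1 to Slc24a3 (0.46) and Gpm6b (0.53), Ecel1 to Clip3 (0.26) and Tshz2 (0.28), and Phyhip to Ttc39c (0.39) and the chemokine gene Cxcl10 (0.48). Wdfy1 and Rgcc had the same nearest genes, Eno3 and Efcab7, at 0.96 and 0.98 for Wdfy1 and 0.65 and 0.6 for Rgcc. Gldc was nearest to Fam110c (0.21), Twist1 to Mesdc1 (0.16), and BC018473 to Top2a and Il21 (1.15 each). These distances scale with how far a gene itself varied: the SD over libraries was 0.42 for Gldc, 0.25 for Twist1, 1.54 for Wdfy1 and 1.87 for BC018473.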

How the data were processed

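The deposited files give read counts per gene for 32 libraries, whole numbers that the authors had not normalized. The submitters' processing notes name Trimmomatic 0.36, HISAT2 2.1.0, SAMtools, HTSeq 0.9.1, R 3.4.4, DESeq2 1.18.1 and the mm10 build. The strand setting and annotation used for counting are not stated by the sources used here. The 5 summary lines that name no gene stayed out of library sizes and tests: per 100 gene counts, reads outside genes were 5.69 to 15.6, ambiguous reads 1.18 to 2.58 and multiply aligned reads 58.6 to 91.3.

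All 32 libraries entered 1 model with a mean per group, after the default filter on low counts and TMM scaling. Contrasts were tested by quasi-likelihood in edgeR 4.0.16, run in R 4.3.3 beside limma 3.58.1. Benjamini-Hochberg adjustment covered 12332 genes, and calls were made below an adjusted p of 0.05. SEs were taken as the log2 change over the root of F. Ratios of pooled counts carry exact 95 percent intervals for counting error only, and a group with no count was taken as 3 counts. The procedure was tested on simulated data.

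The 10 genes, the gene lists, the marker lists and the subtraction of an unstimulated share were chosen with earlier results of these data known. Genes named besides the 10 are Nr4a1, at most 4 genes with the smallest adjusted p per list, the nearest tested gene on each side, and the 2 genes with the most similar pattern per gene. Genes around BC018473, and Tff3, were chosen after their values were seen. Positions are 1-based, from GENCODE for GRCm38.

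Library numbers fall into blocks of 4, each with 1 library of every condition. Deviations from the group means were correlated between libraries of the same block at 0.59 to 0.8 (stimulated with XCT790), 0.58 to 0.82 (stimulated with CompA), 0.63 to 0.81 (XCT790 with CompA) and 0.17 to 0.44 (stimulated with unstimulated) in KO. In WT they were 0.44 to 0.66 (stimulated with unstimulated) and 0.27 to 0.68 (XCT790 with CompA), and not above 0.1 in every block for the inhibitors with stimulated cells. The block was fitted as an alternative. Other alternatives were RLE factors, library totals, no filter, limma-voom, DESeq2 1.42.0, the 2 groups alone, each library left out, the unstimulated share subtracted and, added after seeing the data, the 4 libraries of KO replicate 2 omitted.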

Additional observations from a re-analysis of the deposited data

Results flagged for a closer look

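In WT unstimulated cells, Spock2 in replicate 4 stood at 20.1 CPM, apart from 9.06 to 10.1 CPM in the other 3 libraries, a gap of 0.909 of the group's range. It was the 1 such library among 59 combinations of gene and group tested, a test that chance passes in about 1 of 20 groups.

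Within the blocks of library numbers, Spock2 was higher with CompA than when stimulated alone in all 4 KO blocks (median log2 change 0.42) and lower in all 4 WT blocks (median -1.82). The difference between the genotypes was not tested. The WT value rests on the stimulated libraries that kept unstimulated transcripts.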

How the results depend on the processing

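With the unstimulated share subtracted from WT stimulated libraries, the Spock2 changes in WT turned to 0.93 with XCT790 and 0.92 with CompA, which left 0 of the 10 genes called in each contrast, and 837 and 2664 genes were called in all, in place of 3527 and 4047. The turned Spock2 values rest on the few WT stimulated counts left after subtraction. The replicate block gave 2642 genes in place of 1390 with XCT790 in KO, 3635 in place of 2378 with CompA in KO, 2046 in place of 1161 between the inhibitors in WT and 995 in place of 400 in KO. It called 2 of the 10 genes with CompA in WT in place of 1. The gene added there was Rgcc (log2 -0.52, edgeR adjusted p = 0.000901). Deviations of WT stimulated and CompA libraries of the same block were correlated at -0.06 to 0.43, and whether these libraries are pairs is not known. The block also called 1 gene with CompA in KO, 1 between the inhibitors in WT and 2 in KO, in place of 0, and its other gains stand above. The fit of the 2 groups alone gave 258 (XCT790 in KO), 860 (CompA in KO), 2854 (inhibitors in WT, with 1 of the 10 genes) and 73 genes (inhibitors in KO). DESeq2 gave 623 genes between the inhibitors in KO, with 1 of the 10, 1 with CompA in KO, and 2 with each inhibitor in WT (Wdfy1 added, adjusted p = 0.0319 and 0.0239). Limma-voom called 2 of the 10 with stimulation in WT in place of 4, and 1 with CompA in KO.

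Leaving out 1 library at a time gave 2 to 5 of the 10 genes for stimulation in WT, 771 to 1634 genes for XCT790 in KO, 749 to 1207 between the inhibitors in WT and 186 to 384 in KO. The Ecel1 call for stimulation in WT was lost in limma-voom (adjusted p = 0.225) and without the filter (0.0535), and with 1 library left out at 0.0519 to 0.521. Emp1 was called for stimulation in KO without stimulated replicate 1 (0.64, adjusted p = 0.0407). Of 1223 alternative values of the 10 genes within a genotype, 1188 kept their side of the threshold, 17 gained and 16 lost it, and 2 reversed. No KO against WT value reversed and 33 of 593 moved by more than the spread between libraries, most of them of Ecel1, Phyhip and Twist1. Omission of the 4 libraries of KO replicate 2 changed no call of the 10 genes. Low WT counts of Ecel1, Phyhip, Gldc, Twist1 and BC018473 limit every fold against WT.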
